A study of Prunus avium with 6 samples.

Results

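Ripe fruit was compared with leaf in sweet cherry (Prunus avium), across all genes, with 1 fruit library and 1 leaf library from each of the cultivars ‘Bing’, ‘Lapins’ and ‘Rainier’. All 6 libraries of the series entered the comparison, 3 of fruit and 3 of leaf, and the cultivars served as replicates of each tissue. All material dated from 2012, and fruits were picked at commercial maturity. ‘Bing’ leaf and fruit came from Quillota, ‘Lapins’ leaf and fruit from Los Andes and ‘Rainier’ leaf and fruit from San Francisco de Mostazal, in Chile, so cultivar and site cannot be told apart. The labels name no treatment and do not say whether a library held material of 1 tree or of several. Of 43673 predicted genes, 16519 had a read, 3842 had at least 30 reads over the 6 libraries, and 1864 passed the filter on low counts and were tested. A description was at hand for 428 genes, of which 266 had reads, 75 had at least 30 reads and 33 were tested, so most genes below are counted and not named. By their identifiers, the described genes named below lie on a few of the 5477 scaffolds (assembled stretches of the genome). The lists of genes by function hold described genes only, and not all genes of a function.

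Leaves of a fruit tree fix carbon and export it, and their cells hold chloroplasts rich in light-harvesting proteins. The flesh of a ripening cherry imports sugar, enlarges and softens its cell walls, loses its chlorophyll and, in most cultivars, gains anthocyanins. Genes that serve these tasks commonly differ between leaf and ripening fruit. In tissue samples such as these, fewer cells of a type and less RNA per cell cannot be told apart.

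The libraries held between 70058 and 116264 unique reads (reads that matched 1 predicted gene only), and between 9276 and 11231 genes had a read in a library. Reads that matched more than 1 place made up 1.49% to 2.28% of the mapped reads of a library. A count of 0 allowed up to 3 reads, which is 0.258 to 0.428 per 10000 unique reads. After thinning to 70058 reads each, fruit libraries touched 9298 ± 329 genes and leaf libraries 10322 ± 193 genes (SD, n = 3, exact permutation test, two-sided p = 0.1, the smallest that 3 against 3 libraries allow). The 10 most read genes of a thinned library held 12.5 ± 3.95% of the reads in fruit and 7.82 ± 1.48% in leaf (exact permutation test, two-sided p = 0.2). ‘Bing’ fruit stood apart from the other fruit libraries in several measures, given below beside each result that they touch.

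Fruit and leaf differed in a large part of the genes that could be tested. In edgeR's quasi-likelihood test, 362 of the 1864 genes (19.4%) were higher in fruit and 490 (26.3%) were lower at a Benjamini-Hochberg adjusted p under 0.05, so that 852 genes (45.7%) were called in either direction. Leaving out ‘Bing’ fruit gave 465 genes higher and 658 lower among 2160 genes tested, and 793 of the 845 genes called before and still tested kept their call. Without any other library fewer calls were kept, down to 652 of 852 without ‘Rainier’ leaf. The libraries of fruit and leaf did not overlap in 1055 of the tested genes (56.6%), and in 820 of the 852 called genes.

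The called genes took up a large part of the unique reads, which leave out reads that matched no predicted gene. Genes called higher in fruit carried 25.4% of all unique reads in the ‘Bing’ fruit library, 30.2% in ‘Lapins’ fruit and 35.7% in ‘Rainier’ fruit. In the leaf libraries, named in the same order, they carried 4.14%, 4.03% and 3.85%. Genes called lower in fruit carried 30.6%, 31.8% and 35.1% in leaf. In fruit they carried 3.37%, 3.92% and 3.27%. The share of fruit reads in the fruit-higher genes was smallest in ‘Bing’ and largest in ‘Rainier’, whereas the shares of each class in the opposite tissue lay close together in the 3 cultivars. These shares describe the classes, which were formed from the same reads.

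**Figure D1:**
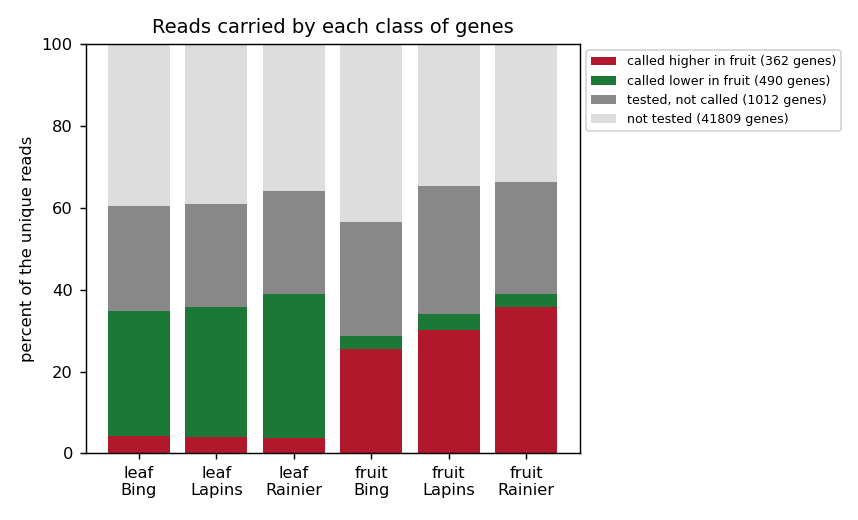
Percent of the unique reads of each library (y axis) in 4 classes of genes, stacked, for the 3 leaf and the 3 fruit libraries (x axis). Genes called higher in fruit take 25.4% to 35.7% of fruit reads and 3.85% to 4.14% of leaf reads, and genes called lower take 30.6% to 35.1% of leaf reads and 3.27% to 3.92% of fruit reads.

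Differences towards leaf were larger than differences towards fruit. The median size of the log2 fold change was 3.14 among genes called lower in fruit (quartiles 2.01 and 4.85) and 2.05 among genes called higher (quartiles 1.54 and 2.95). A difference of at least 8-fold was fitted for 260 lower and 86 higher genes, and of at least 32-fold for 117 lower and 29 higher genes. Of the genes called lower, 56 had no read in any fruit library and 129 had at most 3. Of those called higher, 12 had no leaf read and 33 had at most 3. The median coding length was 1224 bases for lower genes, 1496 for higher genes and 1476 for tested genes that were not called.

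**Figure D2:**
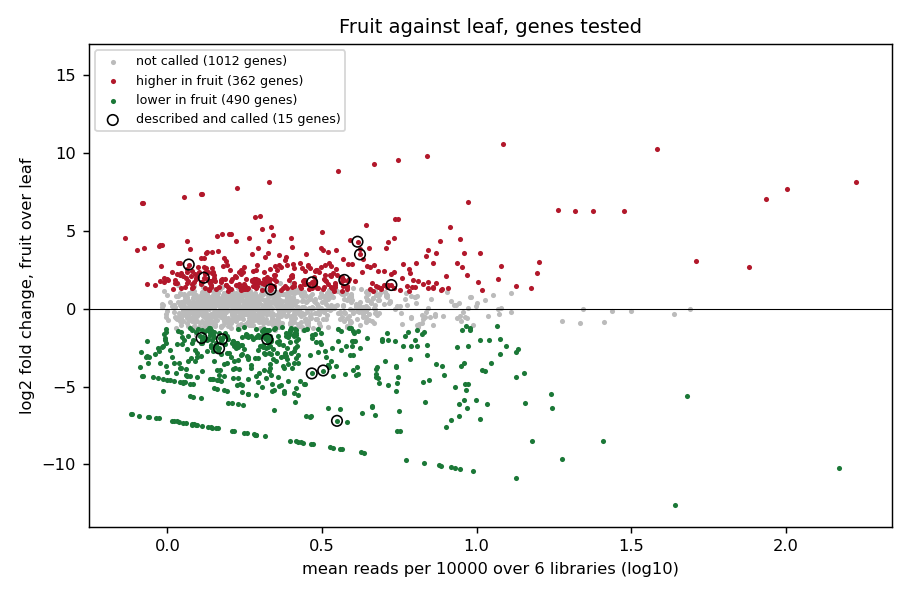
Fitted log2 fold change of fruit over leaf (y axis) against the mean share of the reads over the 6 libraries, as log10 of reads per 10000 (x axis), for the 1864 tested genes. Red points are the 362 genes called higher in fruit, green points the 490 called lower, grey points the 1012 not called, and black rings the 15 called genes with a description. The straight lines of green points at the bottom are genes with no or few fruit reads.

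The most strongly separated genes had no description. Pav_sc0000058.1_g360.1.br had 4, 13 and 7 leaf reads in ‘Bing’, ‘Lapins’ and ‘Rainier’, the order kept throughout, and 2448, 2375 and 4027 fruit reads. It thus had few reads in leaf and took 337 ± 135 of 10000 unique reads in fruit (SD, n = 3), with a log2 fold change of 8.14 ± 0.72 (standard error, edgeR adjusted p = 7.8e-07). Pav_sc0002327.1_g600.1.mk had 6, 7 and 3 leaf reads and 490, 502 and 576 fruit reads (log2 fold change 6.25 ± 0.55, edgeR adjusted p = 7.8e-07). In the opposite direction, Pav_sc0001488.1_g320.1.mk fell from 1742, 1865 and 3016 reads in leaf to 2, 2 and 3 in fruit (log2 fold change -10.21 ± 0.74, edgeR adjusted p = 4.53e-07). Pav_sc0000554.1_g470.1.mk had 666, 691 and 634 leaf reads and no fruit read, which made it at least 795-fold higher in leaf against a floor of 3 reads over the fruit libraries (edgeR adjusted p = 5.86e-07). In each of these genes the 3 cultivars repeated the same order of tissues.

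Among the 33 described genes tested, 8 were higher in fruit, 7 were lower and 18 did not pass, with a median log2 fold change of -0.03 beside -0.00 over all genes tested. The libraries of the 2 tissues stood fully apart in all 15 called genes and in 2 of the 18 others, which is 17 of 33 beside 56.6% of all genes tested. The share called in either direction, 15 of 33, is close to the background of 45.7%. Of the described genes 311 were sorted into 19 lists by function. Fold changes are log2 with standard errors from the edgeR fit, and levels are reads per 10000 unique reads with SD over 3 libraries.

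Of 9 listed genes of photosynthesis 8 had reads and 3 were tested, and these 3 fell, beside 26.3% of all genes tested, with a median log2 fold change of -4.15. Pav_sc0000877.1_g910.1.mk encodes a chlorophyll a-b binding protein, a member of the antenna that passes light energy to the photosystems, and had 57, 48 and 55 leaf reads in ‘Bing’, ‘Lapins’ and ‘Rainier’ against 0, 0 and 1 fruit reads. All but 1 of its reads thus came from leaf. Its level was 7.03 ± 0.732 in leaf and 0.0397 ± 0.0688 in fruit (log2 fold change -7.20 ± 0.74, edgeR adjusted p = 2.12e-06), which moved to -6.57 without ‘Bing’ fruit and to -8.92 without ‘Rainier’ fruit, the library with its single fruit read. Pav_sc0000877.1_g840.1.mk encodes a chloroplastic geranylgeranyl reductase domain protein, the enzyme type that supplies the phytyl tail of chlorophyll and tocopherol, and fell from 35, 39 and 50 reads to 5, 3 and 1 (log2 fold change -4.15 ± 0.57, edgeR adjusted p = 2.18e-05). A protein annotated as ribulose-phosphate 3-epimerase-like of the chloroplast (Pav_sc0000877.1_g1130.1.mk), an enzyme type of the Calvin cycle and the pentose phosphate pathway, fell from 30, 49 and 53 reads to 5, 5 and 1 (log2 fold change -3.97 ± 0.59, edgeR adjusted p = 4.36e-05). For both genes ‘Bing’ had the fewest leaf reads of the 3 cultivars in spite of the deepest leaf library, and ‘Rainier’ had the fewest fruit reads.

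The whole photosynthesis list, which also served as a check on the labels, summed to 16.3, 22.7 and 24.9 reads per 10000 in leaf and to 1.98, 1.21 and 0.715 in fruit. The leaf libraries lay above the fruit libraries throughout. The list of reproductive and seed genes, which would mark other tissue, had reads for 3 of 6 genes, none of them tested. It summed to 6, 0 and 1 reads in leaf and 20, 2 and 9 in fruit, and most of the fruit reads came from POLLEN DEFECTIVE IN GUIDANCE 1 with 11, 1 and 7. Its part in the results was not tested.

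Of 18 listed genes for building and remodelling the cell wall 11 had reads and 2 were tested, and both rose, beside 19.4% of all genes tested. CesA3, annotated as the catalytic subunit 3 of cellulose synthase A (Pav_sc0000882.1_g140.1.mk), a subunit of the complex that makes cellulose of the primary wall in Arabidopsis, had 17, 8 and 10 leaf reads and 47, 43 and 68 fruit reads. Its level rose from 1.49 ± 0.388 to 5.97 ± 2.04 (log2 fold change 1.85 ± 0.47, edgeR adjusted p = 0.00386). The xyloglucan endotransglucosylase hydrolase XTH28 (Pav_sc0000893.1_g780.1.mk), of a family that cuts and rejoins xyloglucan chains, had 8, 15 and 6 leaf reads and 55, 35 and 36 fruit reads. The fruit levels of XTH28 lay close together (4.57 ± 0.249), while ‘Lapins’ leaf lay above the other leaves (log2 fold change 1.70 ± 0.48, edgeR adjusted p = 0.00832). This call was lost without ‘Bing’ leaf (edgeR adjusted p = 0.0622) and without ‘Rainier’ leaf (edgeR adjusted p = 0.0775). Summed over the list, the level was 5.73, 5.42 and 4.13 in leaf and 11.4, 17.1 and 20 in fruit, and the 2 called genes held most of the fruit reads.

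In sugar and acid metabolism 4 of 10 listed genes were tested and 1 rose. Pav_sc0000893.1_g010.1.mk, annotated as cytoplasmic with the domains of the alpha-D-phosphohexomutases, enzymes that move phosphate between positions of a hexose, had 2, 5 and 1 leaf reads and 92, 62 and 62 fruit reads. Fruit levels were close in the 3 cultivars at 7.88 ± 0.477 against 0.36 ± 0.309 in leaf (log2 fold change 4.31 ± 0.57, edgeR adjusted p = 1.87e-05, and 5.05 without ‘Lapins’ leaf). The other tested members had log2 fold changes near 0 and did not pass. These were a chloroplastic protein annotated as malate (0.24 ± 0.47), trehalose-phosphate synthase 6 (0.31 ± 0.48) and a chloroplastic protein annotated as aspartate (-0.43 ± 0.44).

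A cytochrome P450 annotated as CYP82D47-like (Pav_sc0000890.1_g1250.1.mk) was the 1 tested gene of its list, and it rose. P450 enzymes of the CYP82 family oxidise a variety of plant products. It had 2, 10 and 2 leaf reads and 128, 52 and 44 fruit reads, so that ‘Lapins’ was highest among leaves and ‘Bing’ among fruits. The log2 fold change was 3.49 ± 0.63 (edgeR adjusted p = 0.000239), and 4.63 without ‘Lapins’ leaf. Another gene of the same annotation (Pav_sc0000890.1_g1120.1.mk), which was not tested, had 0, 14 and 3 leaf reads and 8, 15 and 9 fruit reads. The 2 genes thus shared their high ‘Lapins’ leaf value but not the level in fruit. Reads that also matched elsewhere were few for the first gene, with 16 over the libraries, but near-identical copies can still divide reads between them. Of the 9 listed CYP82 genes 5 had reads.

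Membrane traffic held 4 tested genes of 20 listed, of which 2 rose and 1 fell. Transmembrane 9 superfamily member 8 (Pav_sc0000890.1_g360.1.mk), of a family of Golgi and endosome membrane proteins, had 30, 15 and 15 leaf reads and 90, 61 and 69 fruit reads. Its fruit level was 8.05 ± 0.271 (log2 fold change 1.52 ± 0.42, edgeR adjusted p = 0.00717). The call was lost without ‘Lapins’ leaf (edgeR adjusted p = 0.0593) and without ‘Rainier’ leaf (edgeR adjusted p = 0.057). Beta-adaptin B (Pav_sc0000886.1_g360.1.mk), a large subunit of the adaptor complexes of clathrin-coated vesicles, had 12, 9 and 7 leaf reads and 38, 14 and 35 fruit reads. ‘Lapins’ fruit lay only a little above the leaves (log2 fold change 1.24 ± 0.48, edgeR adjusted p = 0.0433). With cultivar as a block the adjusted p of beta-adaptin B was 0.0521, and the alternatives in which its call was lost gave adjusted p-values up to 0.184. SNAP33-like (Pav_sc0000877.1_g1610.1.mk), a SNARE protein of membrane fusion at the cell surface in Arabidopsis, fell from 26, 26 and 22 leaf reads to 6, 12 and 6 (log2 fold change -1.95 ± 0.49, edgeR adjusted p = 0.00408). The exocyst subunit SEC3A did not pass, at a log2 fold change of 0.20 ± 0.51.

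Of the signalling genes tested, 2 rose and none passed as lower. A receptor kinase annotated as TMK1-like (Pav_sc0000893.1_g660.1.mk), a transmembrane kinase that acts in auxin responses in Arabidopsis, had 4, 1 and 1 leaf reads and 25, 14 and 19 fruit reads. Its fruit levels of 2.1 ± 0.196 lay well above 0.245 ± 0.177 in leaf (log2 fold change 2.84 ± 0.57, edgeR adjusted p = 0.000611, and 3.51 without ‘Bing’ leaf). Diacylglycerol kinase 2 (Pav_sc0000888.1_g040.1.mk), which turns diacylglycerol into phosphatidic acid, had 5, 3 and 3 leaf reads and 21, 23 and 13 fruit reads (log2 fold change 1.99 ± 0.51, edgeR adjusted p = 0.00459). It was the 1 tested gene of 14 in the lipid list. Of the hormone list, 3 of 19 genes were tested, and the other 2 did not pass. TIFY 6B-like, of the jasmonate repressor family, had 28, 22 and 22 leaf reads and 20, 15 and 15 fruit reads. Its groups did not overlap, with a log2 fold change of -0.89 ± 0.42 and an edgeR adjusted p of 0.0953. Allene oxide synthase, which commits a fatty acid hydroperoxide to jasmonate, had 38, 11 and 21 leaf reads and 17, 21 and 8 fruit reads, and its cultivars went in different directions.

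Of 26 listed ubiquitin and BTB genes 2 were tested and 1 fell. The BTB/POZ protein At5g41330-like (Pav_sc0000886.1_g240.1.mk), of a family that includes substrate adaptors of ubiquitin ligases, had 34, 15 and 11 leaf reads and 9, 2 and 2 fruit reads. ‘Bing’ was highest in both tissues, and the estimated ratios lay close together, although those of ‘Lapins’ and ‘Rainier’ each rested on 2 fruit reads (log2 fold change -2.54 ± 0.57, edgeR adjusted p = 0.0015, and -3.35 without ‘Bing’ fruit). The other tested member was adagio 3, a blue-light receptor and F-box protein of the flowering pathway in Arabidopsis, with 35, 12 and 11 leaf reads and 37, 1 and 2 fruit reads. ‘Bing’ fruit held nearly all of its fruit reads, and its log2 fold change of -1.01 ± 0.74 did not pass (edgeR adjusted p = 0.287). It was -1.56 with cultivar as a block (edgeR adjusted p = 0.0195) and -3.68 without ‘Bing’ fruit (edgeR adjusted p = 0.000226).

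Of 38 listed transcription factors 26 had reads, 2 were tested and 1 fell. OBERON 3 (Pav_sc0000893.1_g720.1.mk), a PHD finger protein of meristem formation in Arabidopsis, had 19, 13 and 14 leaf reads and 8, 7 and 1 fruit reads (log2 fold change -1.88 ± 0.54, edgeR adjusted p = 0.00954). The call was lost without ‘Rainier’ fruit, the library with 1 read (edgeR adjusted p = 0.0554). WRKY40, a transcription factor of defence responses, had 57, 10 and 24 leaf reads and 10, 16 and 24 fruit reads. Its high ‘Bing’ leaf was not shared by the other leaves, and the gene did not pass (edgeR adjusted p = 0.125), although it did without ‘Lapins’ leaf (edgeR adjusted p = 0.0493). In the transport list 2 of 18 genes were tested. PLANT CADMIUM RESISTANCE 2-like (Pav_sc0000893.1_g090.1.mk), of a family of small membrane proteins that export metal ions, fell from 19, 18 and 16 leaf reads to 3, 6 and 8 (log2 fold change -1.96 ± 0.51, edgeR adjusted p = 0.00498). The NRT1 PTR family member did not pass, at 0.36 ± 0.49.

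In 4 further lists the tested members did not pass. These were translation and protein processing with 3 tested of 16 genes, chromatin and RNA with 2 of 27, chloroplast import and gene expression with 1 of 11, and aromatic and aspartate amino acid synthesis with 1 of 3. The last was chorismate mutase 2, which takes chorismate towards phenylalanine and tyrosine, with 28, 9 and 36 leaf reads and 29, 59 and 75 fruit reads. It rose in ‘Lapins’ and ‘Rainier’ alone, and it passed only in the fit without ‘Bing’ fruit (log2 fold change 1.29, edgeR adjusted p = 0.0228). Another 5 lists had no tested member. They were pigments and isoprenoids (4 of 8 genes with reads), defence and receptor kinases (23 of 39), redox and ascorbate (4 of 8), pentatricopeptide repeat proteins (6 of 12) and the reproductive list.

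Per kilobase of coding length, XTH28 had the highest fruit level of the 15 called described genes, at 9.02 reads per 10000. It was followed by the phosphohexomutase family gene at 5.49, CYP82D47-like at 4.92 and transmembrane 9 member 8 at 4.15. In leaf the chlorophyll a-b binding gene had the highest level per kilobase, at 9.15.

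**Figure D3:**
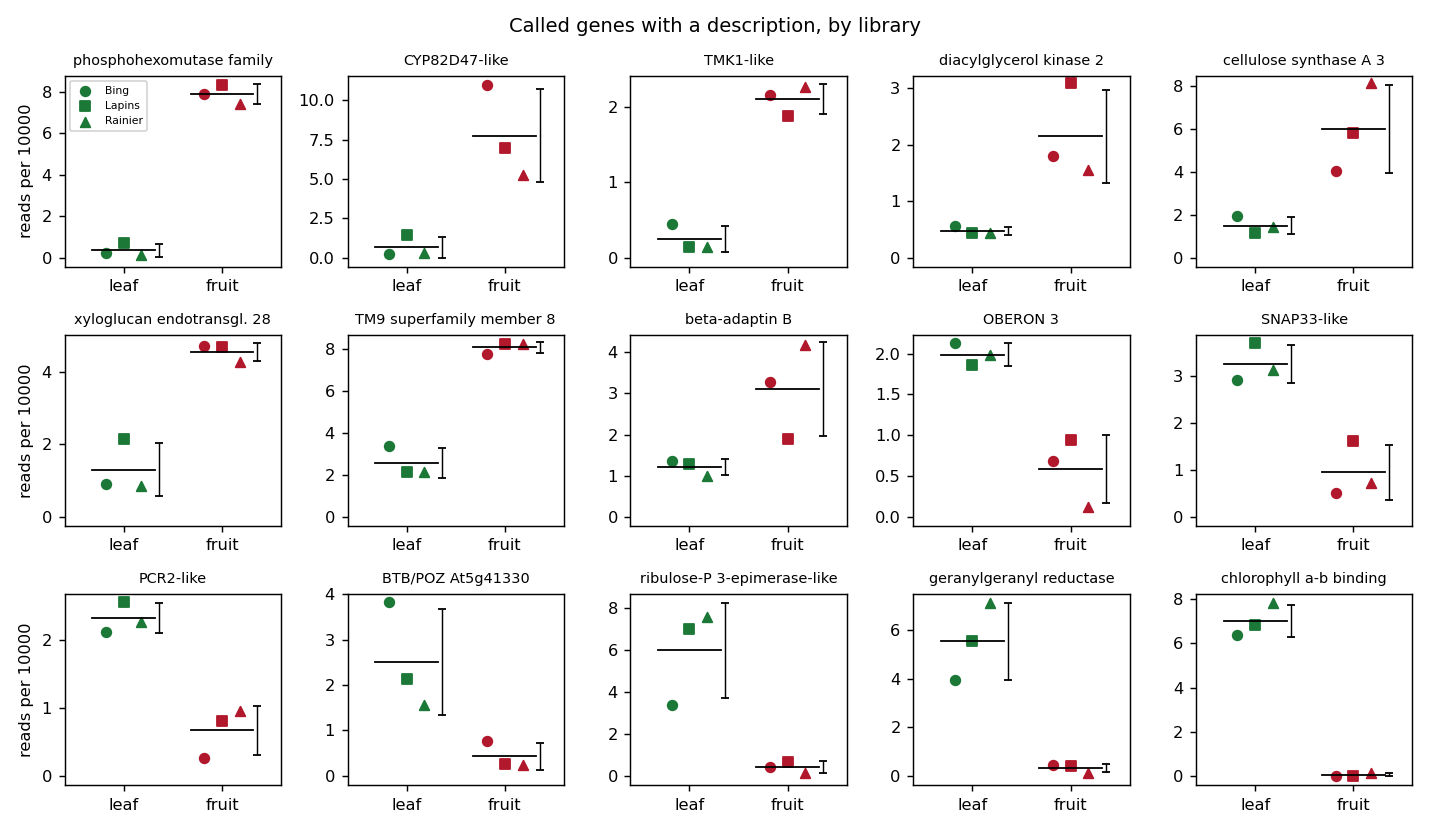
Reads per 10000 unique reads (y axis) in each leaf and fruit library (x axis) for the 15 described genes that were called, ordered by log2 fold change. Circles are ‘Bing’, squares ‘Lapins’ and triangles ‘Rainier’, lines are means of 3 libraries and bars their SD, and in no panel do the libraries of leaf and fruit overlap.

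A further 42 described genes had at least 30 reads and were not tested. In a fit with no filter on low counts, which called 708 of 16519 genes higher (4.29%) and 1249 lower (7.56%), 6 of these rose and 6 fell. Only 3842 of the 16519 genes had at least 30 reads, so the percentages are no like base for the 42 genes. The genes named here were chosen after their values were seen. Adjusted p-values here and in the next paragraph come from the fit with no filter, and are not comparable with those of the filtered fit. For the chlorophyll a-b binding gene the edgeR adjusted p was 4.32e-16 with no filter and 2.12e-06 with the filter. Purple acid phosphatase 3, of an enzyme family that releases phosphate from organic compounds, had no leaf read and 25, 5 and 12 fruit reads. It was at least 11.7-fold higher in fruit against a floor of 3 reads over the leaf libraries (edgeR adjusted p = 4.75e-06). Galacturonosyltransferase-like 1, of a family related to enzymes of pectin synthesis, had 3, 1 and 1 leaf reads and 10, 13 and 37 fruit reads, with ‘Rainier’ fruit the highest (log2 fold change 3.32, edgeR adjusted p = 6.82e-05). The DNA repair helicase XPB1 had 2, 2 and 1 leaf reads and 24, 7 and 13 fruit reads (log2 fold change 2.69, edgeR adjusted p = 0.00461). Flavonoid 3′-monooxygenase, which adds a hydroxyl to the B ring and leads to cyanidin pigments, had 6, 5 and 4 leaf reads and 32, 37 and 4 fruit reads. It was higher in fruit of the dark-fruited ‘Bing’ and of ‘Lapins’ but not in fruit of the bicoloured ‘Rainier’ (log2 fold change over the cultivars 1.97, edgeR adjusted p = 0.00975). Formin 20 had 4, 0 and 4 leaf reads and 20, 9 and 11 fruit reads (edgeR adjusted p = 0.0452). NPY1 passed as well (edgeR adjusted p = 0.0134), with 1, 0 and 5 leaf reads and 33, 6 and 6 fruit reads. Most of its fruit reads came from ‘Bing’, and in ‘Rainier’ its log2 ratio of fruit to leaf was -0.12.

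Those that fell included genes of the chloroplast. The homeobox BEL1 homolog, a regulator of organ identity in Arabidopsis, had 10, 13 and 6 leaf reads and 2, 0 and 0 fruit reads (log2 fold change -3.97, edgeR adjusted p = 0.000269). A chloroplastic phospholipid hydroperoxide glutathione peroxidase, which reduces oxidised membrane lipids, had 10, 21 and 16 leaf reads and 1, 2 and 3 fruit reads (log2 fold change -3.20, edgeR adjusted p = 0.00011). The reads of both genes came almost wholly from leaf. A TIC protein of the chloroplast envelope with a Rieske domain had 16, 9 and 8 leaf reads and 2, 2 and 0 fruit reads (log2 fold change -3.22, edgeR adjusted p = 0.000945). A thylakoidal processing peptidase, which removes the thylakoid transit signal, had 18, 11 and 7 leaf reads and 6, 1 and 1 fruit reads (log2 fold change -2.47, edgeR adjusted p = 0.00557). An indeterminate-domain factor (edgeR adjusted p = 0.00298) had 3, 17 and 10 leaf reads and 3, 1 and 1 fruit reads, so that ‘Bing’ differed little between tissues. DETOXIFICATION 33 fell from 11, 7 and 14 reads to 2, 5 and 2 (edgeR adjusted p = 0.0285).

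Among the 191 described genes with reads but fewer than 30, the same fit called 4 higher and 10 lower. A pectinesterase (Pav_sc0000893.1_g020.1.mk), which removes methyl groups from pectin, had 10, 7 and 2 leaf reads and no fruit read, and so was at least 7.59-fold lower in fruit. Its reads thus came from leaf alone, whereas the other called wall genes rose in fruit. A photosynthetic NDH subunit had 4, 10 and 9 leaf reads and no fruit read, at least 9.18-fold lower in fruit. A sodium hydrogen exchanger had 11, 6 and 2 leaf reads and none in fruit. In the opposite direction the calcium-binding CML25 and a cytoplasmic dynein light chain had no leaf read and 3, 7 and 5 and 2, 8 and 5 fruit reads. At this depth such genes show which tissue held reads and give little on the size of the ratio. Of the described genes 162 had no read in any library.

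The ratio of fruit to leaf was next followed through the cultivars, each of which gave 1 independent pair of libraries. Ratios are log2 values with 1 read added to each count and library sizes scaled by TMM, over the 3842 genes with at least 30 reads, and they are given as a description with no test. In 1158 genes fruit was higher in all 3 cultivars and in 1148 it was lower in all 3, so that 60.0% of the genes kept 1 direction. Across genes, ratios correlated at 0.726 between ‘Bing’ and ‘Lapins’, 0.771 between ‘Bing’ and ‘Rainier’ and 0.793 between ‘Lapins’ and ‘Rainier’ (Pearson's r, 3842 genes that share the same 6 libraries). The median SD of a gene's ratio over the cultivars was 0.77 log2 units. In the genes without a common direction, ‘Bing’ was the odd one in 557, ‘Lapins’ in 560 and ‘Rainier’ in 419.

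**Figure D4:**
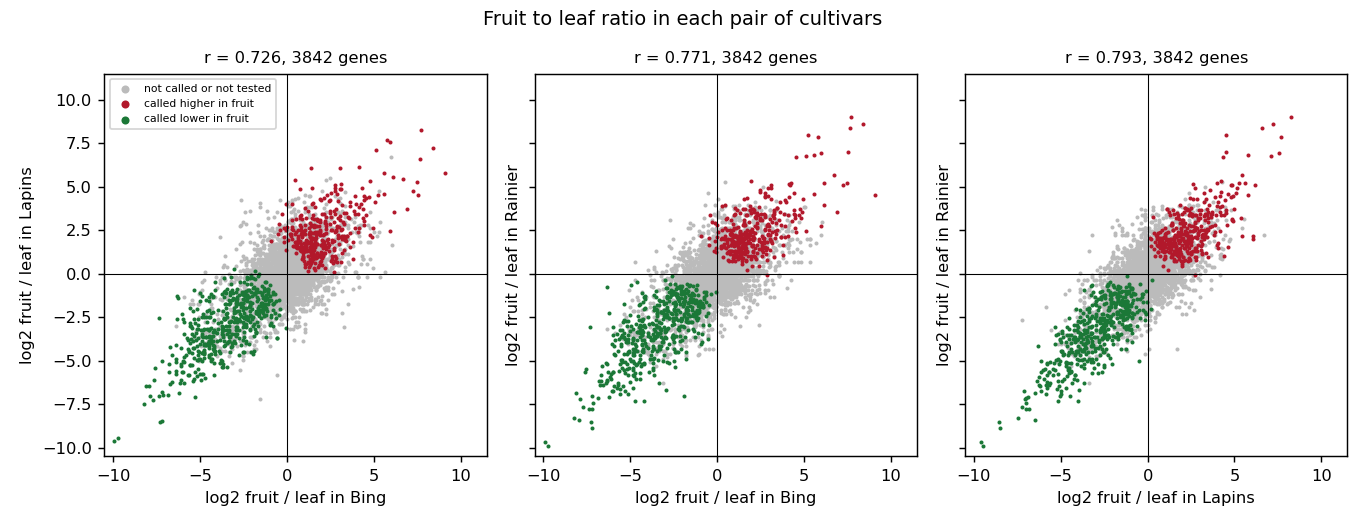
Log2 ratio of fruit to leaf in 1 cultivar (y axis) against another (x axis) for 3842 genes with at least 30 reads over the 6 libraries, in 3 panels with r of 0.726, 0.771 and 0.793. Red and green points are genes called higher and lower in fruit, which lie along the diagonal, and the grey points around 0 are genes not called or not tested.

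By direction and correlation, consistency rose with the number of reads behind a gene. The share of genes with 1 direction in all cultivars was 52.9% at a minimum of 10 reads, 70.4% at 100 reads (979 genes) and 81.6% at 300 reads (179 genes). At 300 reads the correlations were 0.947, 0.947 and 0.967. The sum of squares of log2 levels at 30 reads divided into 71.4% between tissues, 15.2% between cultivars and 13.3% that neither explained. At 300 reads the tissue part was 92.5%. The median SD of a gene's ratio over the cultivars was 0.77 at 30 reads and 0.65 at 300 reads. Over the same step the ratios spread more widely across genes in each cultivar. Their SD across genes went from 2.09 to 3.81 in ‘Bing’ and from 2.07 to 3.97 in ‘Rainier’. A wider spread across genes can by itself raise the correlations, the share with 1 direction and the tissue part. These measures alone therefore do not show that the cultivars parted most at low read numbers. Counting error and true differences cannot be separated with 1 library for each tissue and cultivar.

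Called genes kept their direction almost without exception. Of the 852 genes called by edgeR 837 (98.2%) moved the same way in all 3 cultivars, against 419 of the 1012 tested genes that were not called. The direction entered the test, so these shares describe the calls and do not support them. In 12 of the other 15 genes ‘Bing’ ran against ‘Lapins’ and ‘Rainier’, in 2 ‘Lapins’ did and in 1 ‘Rainier’ did. All 12 were higher in fruit of ‘Lapins’ and ‘Rainier’, with log2 ratios of 1.24 to 4.03, while the size of the log2 ratio in ‘Bing’ was 0.01 to 0.94.

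The distance between libraries was larger across tissues than within them. Over the same 3842 genes the median absolute log2 difference was 0.56 to 0.61 between leaf libraries. Between fruit libraries it was 0.51 for ‘Lapins’ and ‘Rainier’, 0.68 for ‘Bing’ and ‘Rainier’ and 0.75 for ‘Bing’ and ‘Lapins’. Between fruit and leaf it was 1.04, 1.09 and 1.08 within ‘Bing’, ‘Lapins’ and ‘Rainier’ and 1.05 to 1.20 between cultivars. A leaf and a fruit library of 1 cultivar were therefore about as far apart as those of different cultivars, and ‘Bing’ fruit was the more distant of the fruit libraries.

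The study reported its test on proportions of reads for pairs of cultivars within a tissue, not for fruit against leaf. Here the same test compared 1 fruit library with 1 leaf library within each cultivar. It thus has no replicate check, and its p-values cover reads alone. The criteria followed the study, with a p no higher than 0.05, a 2-fold ratio or more, and a minimum of 10 reads. The minimum was asked here of at least 1 of the 2 libraries, since the methods do not say whether it applied to 1 library or both. In ‘Bing’ 1126 genes (29.5% of 3811 with enough reads) were higher in fruit and 950 (24.9%) lower, against 199 and 194 with the minimum asked of both libraries. In ‘Lapins’ 752 (30.2% of 2493) were higher and 743 (29.8%) lower. In ‘Rainier’ 806 (31.7% of 2540) were higher and 728 (28.7%) lower. Which direction held more calls depended on the setting. With library sizes scaled by TMM factors ‘Bing’ had 959 higher and 1034 lower, ‘Lapins’ 714 and 777, and ‘Rainier’ 736 and 768. With p-values adjusted over genes the lower calls were again the more numerous in each cultivar.

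Many of these calls belonged to 1 cultivar. Of 3072 genes called in any cultivar 266 were higher in all 3 and 373 lower in all 3, 705 passed in exactly 2 in the same direction, and 1682 passed in 1 only, of which 942 in ‘Bing’, 384 in ‘Lapins’ and 356 in ‘Rainier’. Genes called in all 3 made up 30.8% of the calls of ‘Bing’, 42.7% of those of ‘Lapins’ and 41.7% of those of ‘Rainier’. These numbers are not at equal depth. ‘Bing’ had the deepest libraries, with 89009 leaf and 116264 fruit reads, and 3811 of its genes had enough reads, against 2493 and 2540. Opposite calls in a pair of cultivars were found for 46 genes, 25 times between ‘Bing’ and ‘Lapins’, 17 times between ‘Bing’ and ‘Rainier’ and 8 times between ‘Lapins’ and ‘Rainier’. Of the 597 genes that passed in all 3 cultivars and were tested by edgeR, 592 were called there in the same direction, from the same reads. A call in 1 cultivar alone does not show that the cultivars differ, since the difference was not tested.

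The 15 called described genes all moved 1 way in the 3 cultivars, and in 12 of them the exact 95% interval of the ratio excluded 1 in each cultivar. The 15 genes were called from the same reads, so this describes the calls and does not support them. By the same rule 260 genes were higher (6.77% of 3842) and 479 lower (12.5%) in all 3. These percentages cover all genes with at least 30 reads, called or not, and are no like base for called genes. Among the 15 the exceptions were beta-adaptin B and OBERON 3, whose intervals included 1 in ‘Lapins’. The interval of diacylglycerol kinase 2 included 1 in ‘Rainier’. The steadiest ratio was that of the BTB/POZ protein At5g41330-like, with log2 ratios of -2.35, -2.59 and -2.35 in ‘Bing’, ‘Lapins’ and ‘Rainier’ (SD 0.14). In ‘Lapins’ and ‘Rainier’ it rested on 2 fruit reads each. With no read added, fruit was 0.118 times leaf in ‘Lapins’ (95% interval 0.0131 to 0.508) and 0.143 times in ‘Rainier’ (0.0154 to 0.655). Transmembrane 9 member 8 followed with 1.01, 1.78 and 1.78 (SD 0.45), and diacylglycerol kinase 2 with 1.33, 2.41 and 1.46 (SD 0.59). These 3 genes came from different lists and covered both directions.

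The least steady ratio was that of CYP82D47-like, with log2 ratios of 4.88, 2.09 and 3.56 (SD 1.39). With no read added, and over the library sizes scaled by TMM factors, fruit was 43.9 times leaf in ‘Bing’ (95% interval 11.9 to 366). It was 4.61 times leaf in ‘Lapins’ (2.32 to 10.2) and 17.3 times in ‘Rainier’ (4.51 to 147). The ‘Bing’ and ‘Lapins’ intervals did not overlap, while that of ‘Rainier’ met both. The ribulose-phosphate 3-epimerase-like gene had log2 ratios of -2.91, -3.23 and -5.10 (SD 1.18) and OBERON 3 had -1.70, -0.98 and -3.25 (SD 1.16). Both were lowest in ‘Rainier’, where each rested on 1 fruit read. Intervals cover counting error only.

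**Figure D5:**
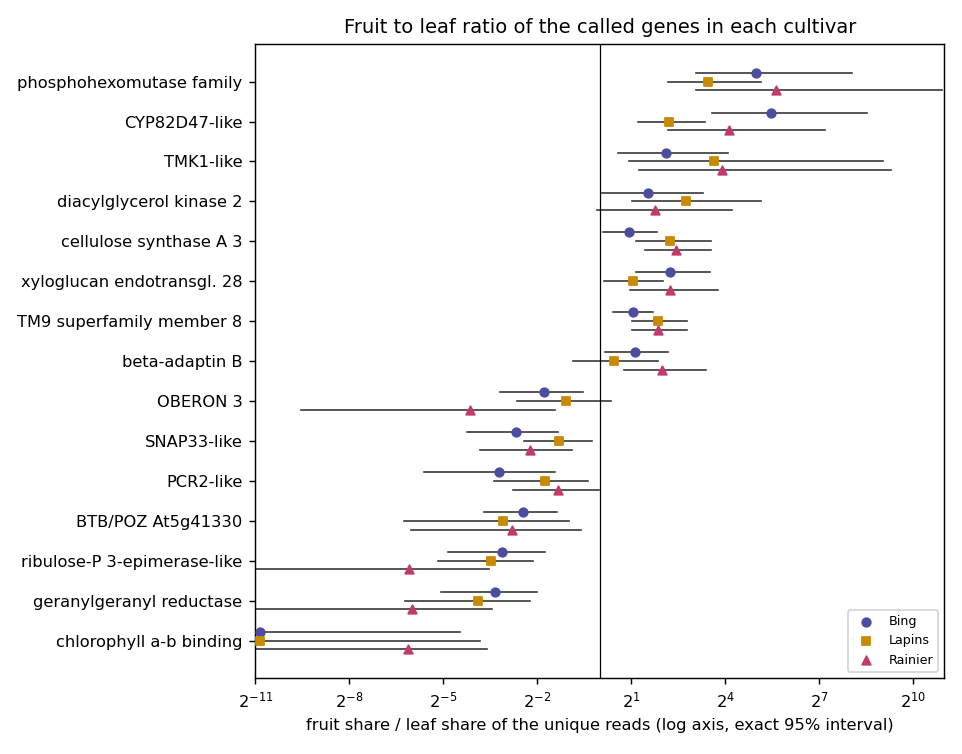
Ratio of fruit to leaf reads over library sizes scaled by TMM factors (x axis, log scale, 1 marked by a line) for the 15 called described genes. The shares named on the axis are taken over these scaled sizes. Exact 95% intervals are drawn for ‘Bing’ (circles), ‘Lapins’ (squares) and ‘Rainier’ (triangles). All points of a gene lie on 1 side of 1; the chlorophyll a-b binding gene had no fruit read in ‘Bing’ and ‘Lapins’, and these ratios of 0 and any interval that leaves the axis are drawn at its edge.

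Of the 18 described genes tested and not called, 7 moved 1 way in all cultivars and 11 did not. WRKY40 spread most, with log2 ratios of -2.94, 0.45 and -0.35 in ‘Bing’, ‘Lapins’ and ‘Rainier’ (SD 1.78). Chorismate mutase 2 followed with -0.50, 2.41 and 0.69 (SD 1.46), and allene oxide synthase with -1.66, 0.70 and -1.64 (SD 1.36). In each of these genes ‘Lapins’ gave the highest ratio and ‘Bing’ the lowest, although ‘Bing’ and ‘Rainier’ were nearly equal in allene oxide synthase. Others stayed near 0 in every cultivar. The chloroplastic protein annotated as malate had 0.21, 0.29 and 0.02 (SD 0.14), and puromycin-sensitive aminopeptidase had -0.21, -0.49 and -0.06 (SD 0.22).

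Few genes showed strong disagreement between cultivars at this depth. Among genes with at least 2-fold differences in each cultivar, 388 were higher in all 3, 607 were lower in all 3 and 41 went in opposite directions, with ‘Bing’ the odd one in 22, ‘Lapins’ in 10 and ‘Rainier’ in 9. Exact intervals lay on opposite sides of 1 in a pair of cultivars for 74 genes (1.93%), none of which had a description. The pair was ‘Bing’ and ‘Lapins’ in 36, ‘Bing’ and ‘Rainier’ in 35 and ‘Lapins’ and ‘Rainier’ in 18. After thinning to equal depth the numbers were 59 genes and 34, 24 and 14 for the pairs. Of the 74 genes 54 were tested by edgeR and 1 was called. Intervals lay on the same side of 1 in all 3 cultivars for 739 genes (19.2%). Each of the remaining genes had an interval that included 1 in at least 1 cultivar, so the share of 1.93% does not show that their cultivars agreed. The intervals were not adjusted for the number of genes.

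Identifiers of the genes end in mk or br, which the sources used here do not explain. Genes ending in mk had reads in 60.3% of 23709 cases, and 811 of the 1800 tested were called (45.1%). Genes ending in br had reads in 11.2% of 19964 cases, and 41 of the 64 tested were called (64.1%). Neighbouring genes, by the number in the identifier, were both called in 40 of 160 tested pairs, and 26 of these pairs moved in the same direction (65%), against 51.1% from the split of all calls. The pairs with 1 direction numbered 11 higher and 15 lower.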

How the data were processed

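RNA of leaf and ripe fruit of 3 cultivars was sequenced by pyrosequencing, with 1 library for each cultivar and tissue. According to the methods of the study, trimming and mapping to the predicted coding sequences were done in CLC Genome Workbench, each library apart. The authors deposited counts of unique reads for every gene, without normalisation, which are used here, and of total reads. The deposited RPKM values served only to recover the coding length of each gene, and 98.8% of the lengths were multiples of 3. Of the identifiers, 0 matched the gene table at hand, and names came from 581 annotation rows of the study.

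Tissues were compared in R 4.3.3 by the quasi-likelihood test of edgeR 4.0.16, after TMM scaling and the filterByExpr filter on tissue, with Benjamini-Hochberg adjustment over 1864 genes and a threshold of 0.05. The common dispersion had a square root of 0.361. Standard errors are the coefficient over the root of its F. The Z-test on proportions followed the criteria of the study, with the minimum of 10 reads asked of at least 1 library. Intervals of ratios are exact (Clopper-Pearson). Scripts were checked on simulated data. Alternatives were DESeq2 1.42.0, other scalings, no filter, a minimum fold, total reads, thinning, other read minimums and pseudocounts, a cultivar block, and each library left out in turn. Named genes were all described genes called, the tested list members, the 3 steadiest and 3 least steady ratios among called described genes, and 2 identifiers in each direction by the smallest p. The members and the 19 lists were chosen with earlier results of these data known.

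Leaf and fruit of 1 cultivar and site form a pair. For ‘Bing’, ‘Lapins’ and ‘Rainier’ the deviations of both members of a pair had a correlation of 0.145, -0.0418 and 0.0912, beside -0.242 to 0.228 for different cultivars. With the cultivar as a block 357 genes were higher and 493 lower, and 822 of the 852 calls were kept. Nothing states that libraries came from separate trees, so p-values measure the spread between these libraries, which includes cultivar and site.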

Additional observations from a re-analysis of the deposited data

Results flagged for a closer look

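The fruit to leaf ratio went in opposite directions in a pair of cultivars for 74 genes, in the sense that the exact 95% interval lay above 1 in 1 cultivar and below 1 in another. The difference between the cultivars was not tested, since each gave 1 library for each tissue. None of these genes had a description. ‘Bing’ was above 1 in 26 of them and below 1 in 37. The deeper ‘Bing’ libraries have narrower intervals, and the count was 59 after thinning to equal depth, an alternative chosen after the data were seen.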

How the results depend on the processing

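The counts of called genes stayed within 1.5 times of 362 and 490 under other scalings, DESeq2, total reads and the block. They did not with no filter on low counts, which tested 16519 genes and called 708 higher and 1249 lower, with 16 and 22 list members, and with a minimum fold of 2 inside the test, which called 202 higher. Leaving out 1 library gave 309 to 465 genes higher and 521 to 658 lower, and 8 to 11 list members higher and 9 to 13 lower, beside 8 and 7, among 2160 to 2543 genes tested. Of the calls still tested, between 652 of 852 (without ‘Rainier’ leaf) and 793 of 845 (without ‘Bing’ fruit) were kept. Library sums alone and upper-quartile scaling shifted the median log2 fold change of all genes by 0.12 and 0.103, and no filter by -0.167. With cultivar as a replicate block, the call of beta-adaptin B was lost and that of adagio 3 was gained, and no other call of a named gene changed.

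Some genes near 0 changed sign. Without 1 library, log2 fold changes ranged from -0.03 to 0.50 for the malate gene, from -0.26 to 0.36 for PIN2/TERF1-interacting telomerase inhibitor, from -0.44 to 0.33 for PIAL2, from -0.73 to 0.17 for hepatoma-derived growth factor-related 2, from -0.23 to 0.52 for SEC3A, from -0.05 to 0.51 for trehalose-phosphate synthase 6 and from -0.03 to 0.66 for the NRT1 PTR gene. PIAL2 (-0.03) also stood at 0.07 with library sums and with upper-quartile scaling and at 0.03 with no filter. None of these genes passed the test under any setting named here.

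Z-test calls depended on the criteria. With adjusted p the numbers were 725 higher and 806 lower in ‘Bing’, 526 and 548 in ‘Lapins’, 527 and 611 in ‘Rainier’, and 18 opposite, so that more genes were lower than higher, the reverse of the unadjusted counts. With 10 reads in both libraries they were 199 higher and 194 lower in ‘Bing’, 135 and 81 in ‘Lapins’, 137 and 103 in ‘Rainier’, 30 and 28 in all 3, and 9 opposite, since genes rare in 1 tissue drop out. At 10 reads over the libraries the correlations of ratios were 0.616, 0.656 and 0.673, with 52.9% in 1 direction and a median SD of 0.85. At 100 reads they were 0.849, 0.876 and 0.902, with 70.4% and 0.70. A pseudocount of 0.5 gave a median SD of 0.84. Depth limits genes with few reads, where a count of 0 allows up to 3 reads.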
